A study of Homo sapiens with 6 samples.

Results

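The carbonic anhydrases are a family of proteins whose active members are zinc enzymes. Followed here by name were 9 of their genes: CA2, CA4, CA5B, CA8, CA9, CA11, CA12, CA13 and CA14. Of these, 8 had an entry among the 17381 genes of the deposited table, and CA8 was not analysed here. Because the genes were picked with the difference between the groups already known, their values are given as a description, with no test. RNA sequencing was done on cells labelled Hep3B, a human hepatocarcinoma line, which the series title says had acquired resistance to the kinase inhibitor sorafenib. There were 3 libraries titled as STIM1 knockout (SKO) and 3 from wildtype cells (CN, called control), all 6 with a treatment field of none. The genotype field names STIM1 KO, STIM2 KO and STIM3 KO for the 3 knockout samples, although the titles and the series text give 1 STIM1 knockout group. Whether the libraries came from separate cultures or clones is not stated, so the spread between them may be technical.

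Active carbonic anhydrases turn carbon dioxide and water into bicarbonate and a proton, and run the reaction backwards as well. They differ in where they work. CA2 and CA13 are cytosolic, CA5B is mitochondrial, CA4 is held on the cell surface by a lipid anchor, and CA9, CA12 and CA14 span the membrane with the active site outside the cell. CA9 is a classical target of the hypoxia-inducible factor (HIF) and is used as a marker of hypoxia in tumours, and CA12 is also found in many tumours. CA8 and CA11 are carbonic anhydrase-related proteins, which keep the fold but lack the catalytic activity. In liver the mitochondrial form is CA5A.

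The starts of CA9, CA12 and CA14, the membrane-spanning enzymes, are shown because they carried the family's reads in control libraries or shared its site of action. The windows are RefSeq promoters of GRCh38.p14, from 250 bases before to 50 bases after the RefSeq gene start, written from 5′ to 3′ on the gene's strand. A window was also found for CA5B, which is described in words. Capitals mark the core letters bound by HIF, which are ACGTG or else GCGTG, and those bound by AP-1, which are TGANTCA, on either strand, so that a match on the other strand shows as the reverse complement.
CA9: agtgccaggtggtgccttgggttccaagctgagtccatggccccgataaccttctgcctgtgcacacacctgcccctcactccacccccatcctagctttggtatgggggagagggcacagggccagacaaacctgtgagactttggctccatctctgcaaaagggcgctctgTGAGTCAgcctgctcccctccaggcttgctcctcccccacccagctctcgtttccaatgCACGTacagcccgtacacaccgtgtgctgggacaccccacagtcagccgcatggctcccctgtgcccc
CA12: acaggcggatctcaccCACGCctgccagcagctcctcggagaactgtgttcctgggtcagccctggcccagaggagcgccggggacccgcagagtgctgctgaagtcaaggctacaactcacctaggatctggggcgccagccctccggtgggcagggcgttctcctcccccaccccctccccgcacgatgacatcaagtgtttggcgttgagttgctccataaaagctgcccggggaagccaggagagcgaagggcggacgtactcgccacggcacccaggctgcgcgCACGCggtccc
CA14: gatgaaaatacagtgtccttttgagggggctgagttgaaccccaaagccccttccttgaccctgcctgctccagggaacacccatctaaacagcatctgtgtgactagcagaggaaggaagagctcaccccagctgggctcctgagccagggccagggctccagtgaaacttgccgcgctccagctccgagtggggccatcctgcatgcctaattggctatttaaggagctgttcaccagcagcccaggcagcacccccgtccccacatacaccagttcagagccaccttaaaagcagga
The CA9 window lies at chr9:35673678-35673977 on the plus strand, that of CA12 at chr15:63381797-63382096 on the minus strand and that of CA14 at chr1:150257524-150257823 on the plus strand. CA9 held ACGTG on the other strand, with its first base 18 bases before the start, and TGAGTCA 77 bases before it. CA12 held GCGTG on the other strand 234 bases before the start and again from base 40 after it. CA14 held none of the motifs in this window. The deposited start lies before the RefSeq start by 119 bases for CA9 and by 516 bases for CA14. By the deposited coordinates both marked CA9 motifs thus lie inside CA9, and the CA14 window lies wholly inside CA14. CA5B held GCGTG 6 times before its start and ACGTG once from base 18 after it. Over all 35116 promoter windows of the same length, 21.4% held ACGTG, 36.5% held GCGTG, 48.4% held at least 1 of them and 7.71% held TGANTCA. CG dinucleotides numbered 7 in CA9, 22 in CA12, 4 in CA14 and 23 in CA5B, against a median of 14 over all windows.

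Values below are normalized read counts, that is reads divided by the authors' size factor of the library. The deposited table holds group means only. The long decimals of these means allowed the whole reads of each library to be worked out. Such libraries carry no sample number, and A is the one with the highest size factor in its group and C the one with the lowest. The knockout-labelled libraries held 15098349, 14694890 and 12042705 reads and the control libraries 16398992, 14934842 and 13854858. STIM1 itself, on chromosome 11 from 3854604 to 4093210 (GRCh38), had 1454, 1439 and 1422 normalized reads in the libraries labelled knockout, against 1047, 972 and 836 in control libraries. It was thus higher, not lower, in the libraries labelled knockout (log2 change 0.60 and adjusted p = 4.33e-14, both from the authors' deposited table). Each direction below is therefore that of libraries labelled STIM1 knockout. The liver genes AFP and ALB had 1 read each over the libraries labelled knockout and 0 reads over the control libraries, and APOA1 had 2 reads in each group. Among 6 counted liver markers 3 had at most 3 reads in each group. The transcription factor HNF4A was the 1 called (16.7%, higher), with a mean of 817 in the libraries labelled knockout and 219 in control. The shares over all genes were 25.7% higher and 28.8% lower. SERPINA1, left out of the 6 for an entry on an alternate locus, had 0 reads in the libraries labelled knockout and 21 in control, and was called lower. The sum of 5 fibroblast markers ran from 143 to 419 and from 474 to 676, that of 5 endothelial markers from 19.5 to 22.9 and from 127 to 165, and that of 5 blood cell markers from 26.4 to 39.1 and from 49.2 to 62.2, each given for the libraries labelled knockout and then for control. Their part in the differences below was not tested.

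CA9 and CA12 were nearly lost in the libraries labelled knockout, and the other members with reads were lower too. Of the 8 members, 6 were lower and none was higher in the authors' deposited table, with a threshold of 0.05 on its adjusted p, where 28.8% of all 17381 genes were lower, 25.7% higher and 54.5% either. In the same 6 members all libraries labelled knockout lay below all control libraries, as did 33.2% of all genes, while 29.9% lay above and 63.0% did either. As the members were chosen on this contrast, nothing is read from these counts. The remaining 2 members, CA4 and CA5B, had at most 3 reads in either group. In bulk RNA, fewer cells that express a gene and less of its RNA per cell cannot be told apart.

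**Figure D1:**
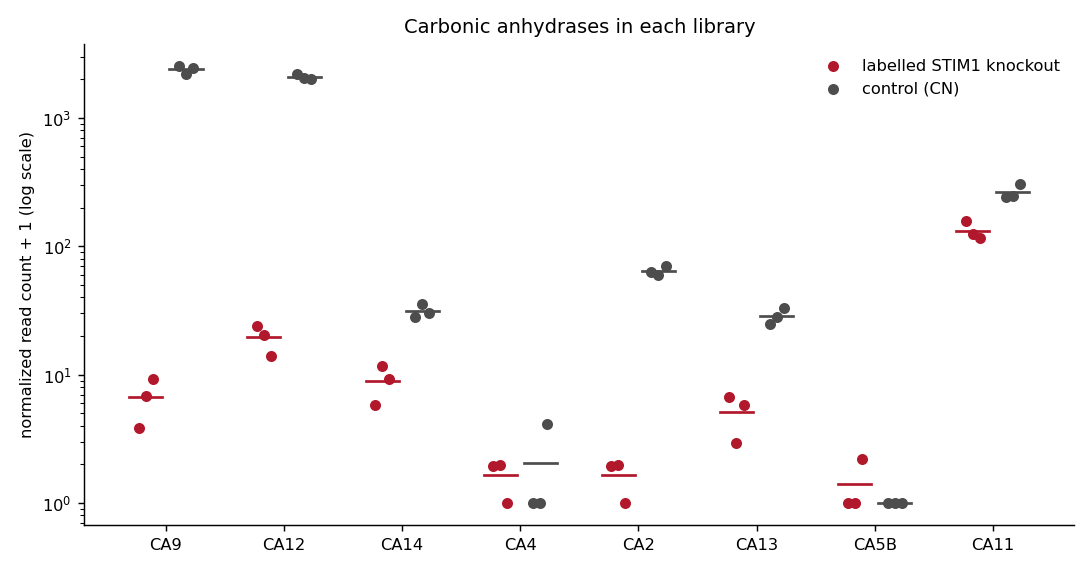
Normalized read count plus 1, on a log axis, of the 8 carbonic anhydrases in each library, with libraries labelled STIM1 knockout (red) left of control libraries (grey). Points are libraries A, B and C and bars are group means. CA9 stood at 2.86 to 8.32 against 2198 to 2541 and CA12 at 13.1 to 22.9 against 1996 to 2199, while CA11 stood at 114 to 156 against 240.5 to 303.

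Among the membrane enzymes, CA9 (chromosome 9, 35673809 to 35681159) had 2.86, 5.86 and 8.32 normalized reads in libraries A, B and C labelled knockout, against 2541, 2198 and 2440 in control libraries. These rested on 3, 6 and 7 reads in the libraries labelled knockout and on 2885, 2279 and 2353 reads in control. The groups lay far apart, and no library labelled knockout came near a control library. The group means were 5.68 ± 2.74 and 2393 ± 177 (SD, n = 3 each), a log2 change of −8.72 in the authors' deposited table and of −8.57 (SE 0.23) by limma on log2(normalized count + 1). The knockout-labelled mean was 0.237% of the control mean. Among 10527 genes whose mean reached 100 in either group, 37 had a more negative log2 change than CA9.

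CA12 (chromosome 15, 63321378 to 63381846, minus strand) had 22.9, 19.5 and 13.1 normalized reads in the libraries labelled knockout, against 2199, 2059 and 1996 in control libraries. The groups did not overlap, and the libraries labelled knockout held 55 reads in all. The means were 18.5 ± 4.98 and 2084 ± 104 (SD, n = 3 each), a log2 change of −6.82 in the authors' deposited table and of −6.77 (SE 0.15) by limma. The knockout-labelled mean was 0.887% of the control mean, and 114 of the 10527 genes had a more negative log2 change.

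CA14 (chromosome 1, 150257258 to 150265862) was a low transcript in both groups. It had 4.76, 10.7 and 8.32 normalized reads in the libraries labelled knockout, against 27.3, 34.7 and 29.0 in control libraries. The groups did not overlap, and the means of 7.94 ± 3.01 and 30.4 ± 3.88 (SD, n = 3 each) gave a log2 change of −1.93 in the authors' deposited table and of −1.86 (SE 0.33) by limma. CA14 overlaps by 459 bases with APH1A on the opposite strand, a gene with means of 1285 and 1553, so reads of the pair may be mixed where strand was not used. CA4 (chromosome 17, 60149942 to 60179021) had 1, 1 and 0 reads in the libraries labelled knockout, against 0, 0 and 3 reads in control libraries. It overlaps USP32 by 1791 bases, and no fold is given at so few reads.

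The cytosolic enzymes were low in control and lower still in the libraries labelled knockout. CA2 (chromosome 8, 85464007 to 85481493), the widespread fast cytosolic form, had 0.953, 0.977 and 0 normalized reads in the libraries labelled knockout, against 62.5, 58.8 and 69.5 in control libraries. With only 2 reads over the libraries labelled knockout, against 199 in control, the level was 1.08% of control, with a 95% counting interval (exact Clopper-Pearson) from 0.130% to 3.96%. This interval covers counting error only, as the reads are not known to be single molecules. CA13 (chromosome 8, 85245458 to 85284073) had 5.72, 1.95 and 4.76 normalized reads in the libraries labelled knockout, against 23.8, 27.0 and 32.1 in control libraries. The groups did not overlap, with means of 4.14 ± 1.96 and 27.6 ± 4.22 (SD, n = 3 each) and a log2 change of −2.74 in the authors' deposited table, or −2.55 (SE 0.38) by limma.

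CA5B, the mitochondrial member (chromosome X, 15738270 to 15788411), had 1 read over the libraries labelled knockout and 0 reads in control libraries. A count of 0 allows a group mean of up to 0.956 normalized reads in control, at 3 reads over the group, so no difference was detectable at this depth. CA5B has a transcribed pseudogene copy, CA5BP1, and reads that the counting could not place are not known, so its level is uncertain.

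CA11, the related protein without catalytic activity (chromosome 19, 48637946 to 48646187, minus strand), kept the largest share of its control level among the 6 members with reads. It had 156, 123 and 114 normalized reads in the libraries labelled knockout, against 240.5, 245 and 303 in control libraries. The groups did not overlap, and both were spread more widely than counting alone gives, by 1.90 times and 2.19 times the counting SD. The means were 131 ± 22.2 and 263 ± 34.7 (SD, n = 3 each), so the knockout-labelled mean was 49.9% of the control mean (SE 0.13 on the log2 scale by limma). Of the 10527 genes, 1008 had a more negative log2 change than CA11.

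The members also differed in how closely the libraries of a group matched. In control the coefficient of variation was 4.98% for CA12, 7.38% for CA9 and 8.49% for CA2, and 12.8% to 15.2% for CA14, CA11 and CA13. CA9 varied by 3.68 times the counting SD in control, with library B the lowest, while CA2, CA13 and CA14 stayed under their counting SD. In the libraries labelled knockout CA9, CA12, CA13 and CA14 had 0.942 to 1.14 times the counting SD, so their scatter was about that of read counting.

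The other members of the family, listed here with the results known, were mostly near the limit of detection. CA7, a cytosolic form best known from brain, had 2, 0 and 0 reads in the libraries labelled knockout, against 38, 25 and 35 reads in control libraries. Its level was 2.20% of control with a 95% counting interval from 0.262% to 8.15% (adjusted p = 7.40e-13 in the authors' deposited table). CA5A, the liver mitochondrial form, had 3, 6 and 6 reads in the libraries labelled knockout, against 4, 3 and 5 in control libraries (adjusted p = 0.852 in the authors' deposited table). CA1, CA3 and CA6 had 0 reads in the libraries labelled knockout, against 4, 4 and 3 over the control libraries, and CA10 was not analysed here. Of these 5 genes 1 was lower and none was higher by the authors' test, against 28.8% lower and 25.7% higher over all genes. CA1, CA3 and CA6 had too few reads to show a direction, so nothing is read from these counts.

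Per kilobase of the deposited gene length, CA9 led the 13 listed carbonic anhydrases in control with 1346 ± 99.3 normalized reads per kilobase (SD, n = 3), followed by CA12 with 339 ± 16.9, CA11 with 92.9 ± 12.3 and CA2 with 40.7 ± 3.46. Next came CA7 with 17.1 ± 3.49, CA14 with 9.59 ± 1.23 and CA13 with 7.12 ± 1.08. No range of 3 control libraries overlapped that of the next gene down to CA5A, and from CA5A downwards each overlapped the next. In the libraries labelled knockout the order was CA11 with 46.4 ± 7.85, then CA9 with 3.20 ± 1.54, CA12 with 3.01 ± 0.810 and CA14 with 2.51 ± 0.950 normalized reads per kilobase. There CA11 stood clear of the rest, and every pair of neighbours below it overlapped.

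Summed over the 13 genes, the family came to 58.6 ± 6.76 normalized reads per kilobase in the libraries labelled knockout, against 1856 ± 114 in control libraries (SD, n = 3 each). The knockout-labelled sum was 3.16% of the control sum. CA9 and CA12 together made up 10.8 ± 2.45% of the sum in the libraries labelled knockout and 90.8 ± 0.980% in control. CA11, which is not an active enzyme, made up 78.9 ± 4.09% in the libraries labelled knockout and 5.01 ± 0.649% in control. Without CA9 and CA12 the sums were 52.4 and 171 normalized reads per kilobase.

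**Figure D2:**
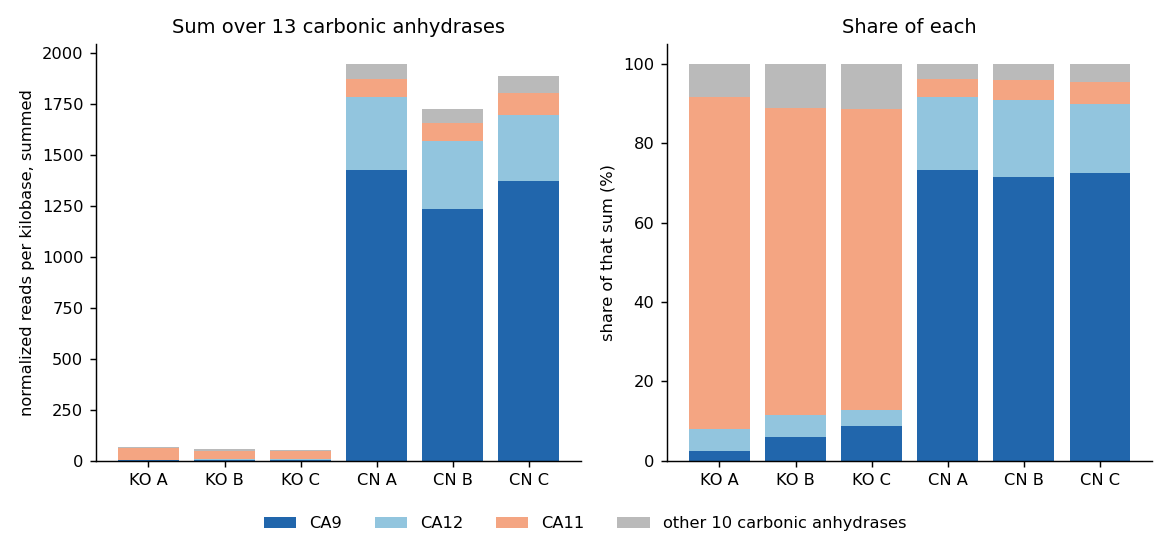
Left, normalized reads per kilobase summed over 13 carbonic anhydrases in each library, with libraries labelled STIM1 knockout (KO) left of control (CN); right, the share of that sum in percent taken by CA9, CA12, CA11 and the other 10. The sum lay between 53.2 and 66.2 in the libraries labelled knockout and between 1728 and 1948 in control, and CA11 took 75.8% to 83.5% of it in the libraries labelled knockout.

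The genes next to the members were compared with them, and none beside CA9 or CA12 had as negative a log2 change as the member. The 2 nearest listed genes on each side of each member gave 26 distinct neighbours, apart from other carbonic anhydrases, with reads enough for a ratio. Their log2 changes ran from −1.50 (PLEKHO1, next to CA14) to 1.87 (E2F5, next to CA13), with a median of −0.28. By the authors' test 10 were lower, 8 higher and 8 not called. Over all genes 28.8% were lower and 25.7% higher. Beside CA9, the tropomyosin gene TPM2 had means of 2077 ± 52.1 and 4332 ± 29.2 (SD, n = 3 each), a log2 change of −1.06, and the talin gene TLN1 had a log2 change of −0.28. On its other side ARHGEF39 had a log2 change of −0.29 and CCDC107, not called, of −0.52. Beside CA12, APH1B and USP3 rose by 0.27 and 0.41 on the log2 scale and RAB8B fell by 0.44, while FBXL22, not called, had a log2 change of −0.31. CA13, CA1, CA3 and CA2 follow each other on chromosome 8, and of these CA13 and CA2 were lower in the libraries labelled knockout. CA1 and CA3, with 0 reads there and 4 each in control, were not called and show no direction. The 4 reads of CA1 all lay in control library C.

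**Figure D3:**
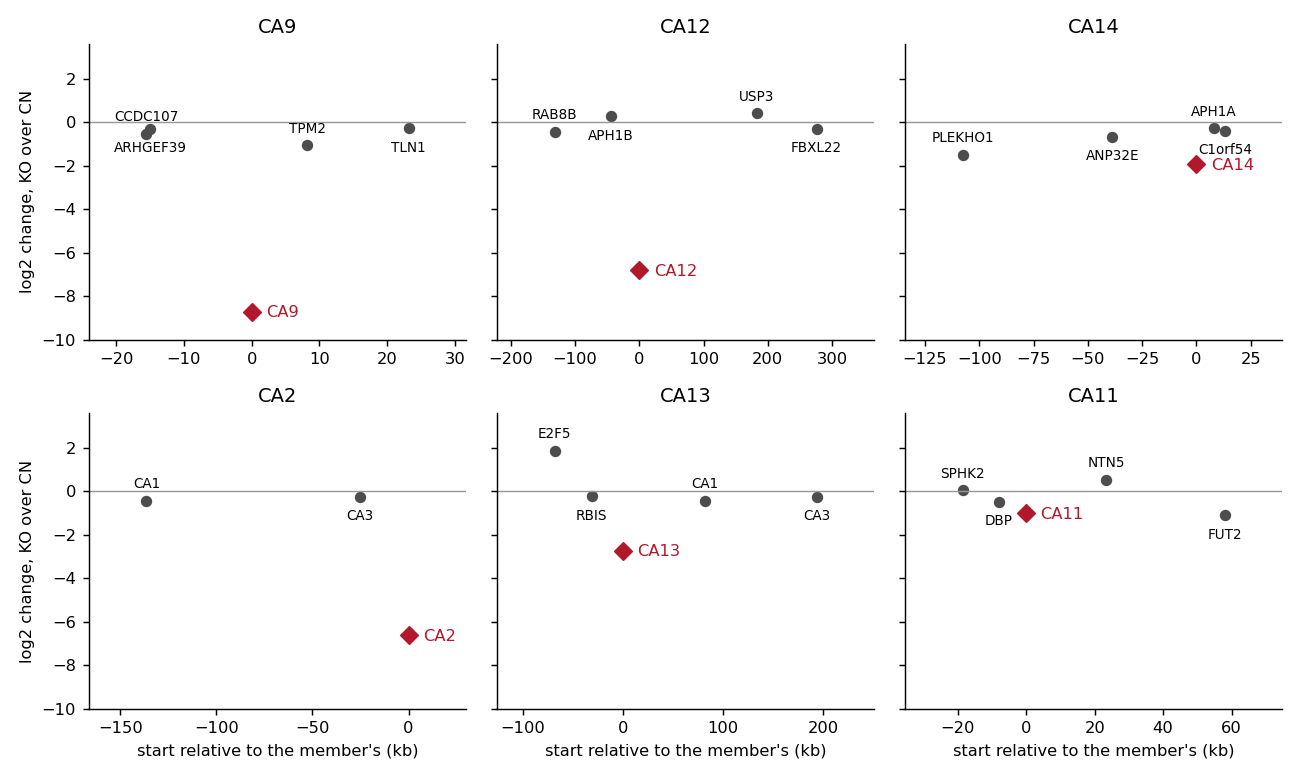
Log2 change, libraries labelled STIM1 knockout (KO) over control (CN), of 6 carbonic anhydrases (red diamonds) and their nearest listed genes on each side (grey points), against the distance between gene starts in kilobases. CA9 at −8.72 and CA12 at −6.82 lay far below their neighbours, while CA11 lay among its own. CA1 and CA3, at 0 reads in KO, are drawn at 3 reads over the group, and genes with at most 3 reads in both groups are not drawn.

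The genes most like CA9 in level and change, by the Euclidean distance of log2(normalized count + 1) over the 6 libraries, were SELENBP1 at a distance of 1.26, AKR1C3 at 1.43 and METTL7A at 1.44. SELENBP1 had means of 4.64 ± 2.62 and 1509 ± 52.8 (SD, n = 3 each), a log2 change of −8.34 in the authors' deposited table. For CA12 they were the collagen receptor gene DDR2 at 0.92, QPRT, an enzyme of NAD synthesis, at 0.93 and the aldehyde dehydrogenase gene ALDH2 at 1.14. DDR2 had means of 21.5 ± 3.24 and 2267 ± 40.3, a log2 change of −6.72 in the authors' deposited table. All 6 lie on other chromosomes than the member they resemble.

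Genes of the HIF system, which acts on CA9, were examined next. Of 10 HIF factors and the proteins that control them, 6 fell, 2 rose and 2 did not pass in the authors' deposited table. Shares over all genes were 28.8% lower and 25.7% higher. The list had a median log2 change of −0.36 against −0.02 over all genes. It was chosen with earlier results known, so nothing is read from its counts. The controlling proteins, named after their values were seen, went both ways. VHL (log2 change −0.40) and EGLN3 (−2.69) fell, while EGLN1 (0.60) and HIF1AN (0.45) rose. HIF1A, the oxygen-regulated subunit, had 1138, 1254 and 1224 normalized reads in the libraries labelled knockout, against 7437, 7948 and 7677 in control libraries. Its groups did not overlap, with a log2 change of −2.67 (limma SE 0.04). ARNT2, a partner subunit, fell to 45.2 ± 8.17 in the libraries labelled knockout, against 401 ± 48.4 in control (SD, n = 3 each), and EPAS1, the HIF-2 alpha subunit, to 3532 ± 71.4 against 4813 ± 100.4. These are transcript levels, and HIF1A is mainly controlled as a protein.

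None of the other HIF targets examined had as negative a log2 change as CA9 or CA12. Of 18 such genes 12 fell (66.7%), 3 rose (16.7%) and 3 did not pass, against 28.8% lower and 25.7% higher over all genes. Their median log2 change was −0.38, against −0.02 over all genes. The list was chosen with earlier results known, so nothing is read from these counts. BHLHE40, a transcriptional repressor, had means of 1595 ± 53.2 and 3269 ± 135 (SD, n = 3 each), a log2 change of −1.03. VEGFA, the endothelial growth factor, had a log2 change of −0.89 and BNIP3L, a mitophagy receptor, of −0.60. ANGPTL4, a secreted lipase inhibitor chosen after its values were seen, had the lowest log2 change of the list, −5.61, with means of 4.17 and 204. The 18 genes lay between that value and 1.42.

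Genes that move or use bicarbonate and protons moved in both directions. Of 12 bicarbonate transporters 4 fell, 3 rose and 5 did not pass in the authors' deposited table, that is 33.3% lower and 25.0% higher, near the 28.8% and 25.7% of all genes. SLC4A2, a chloride-bicarbonate exchanger, rose to 6493 ± 90.5 in the libraries labelled knockout, against 4024 ± 115 in control (SD, n = 3 each), a log2 change of 0.69. SLC4A7, a sodium-bicarbonate cotransporter, fell to 538 ± 74.9 against 1217 ± 24.9, a log2 change of −1.18. SLC4A8, of the same family, had a log2 change of −2.41 on means of 5.64 and 29.9.

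Of 13 proton and lactate exporters 5 fell (38.5%), 4 rose (30.8%) and 4 did not pass, against 28.8% lower and 25.7% higher over all genes. SLC16A1, with an entry on an alternate locus, was left out as uncertain. SLC9A7, a sodium-proton exchanger of the Golgi, fell to 65.7 ± 11.9 in the libraries labelled knockout, against 552 ± 16.5 in control (SD, n = 3 each), a log2 change of −3.07. SLC9A2, a surface exchanger of the same family, had 3 reads over the libraries labelled knockout and 68 in control. BSG, the chaperone of lactate transporters, differed by a log2 change of −0.17. Among 7 counted enzymes that fix or use bicarbonate 2 fell (28.6%), 2 rose (28.6%) and 3 did not pass, near the shares of all genes. ACACA and MCCC2 were left out for alternate copies. CPS1, the entry enzyme of the urea cycle, had 5.72, 2.93 and 2.38 normalized reads in the libraries labelled knockout, against 4591, 4542 and 4327 in control libraries, a log2 change of −10.25. PCCB and ACACB, carboxylases of propionyl-CoA and acetyl-CoA, rose by 0.61 and 0.63 on the log2 scale.

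Among 7 partners and carbonic anhydrase-like proteins 4 rose (57.1%), 1 fell (14.3%) and 2 did not pass. The shares over all genes were 25.7% higher and 28.8% lower. As this list too was chosen with earlier results known, nothing is read from its counts. ITPR1, the calcium release channel that CA8 binds, rose to 9256 ± 171 in the libraries labelled knockout, against 3150 ± 74.0 in control (SD, n = 3 each), a log2 change of 1.55. Its relative ITPR2 rose by 0.29 on the log2 scale. NRXN3, a synaptic neurexin chosen after its values were seen, was called higher on 21 reads over the libraries labelled knockout and 1 read in control. PTPRG, a receptor phosphatase with a carbonic anhydrase-like domain outside the cell, fell to 229 ± 11.3 against 447 ± 31.3, a log2 change of −0.97.

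**Figure D4:**
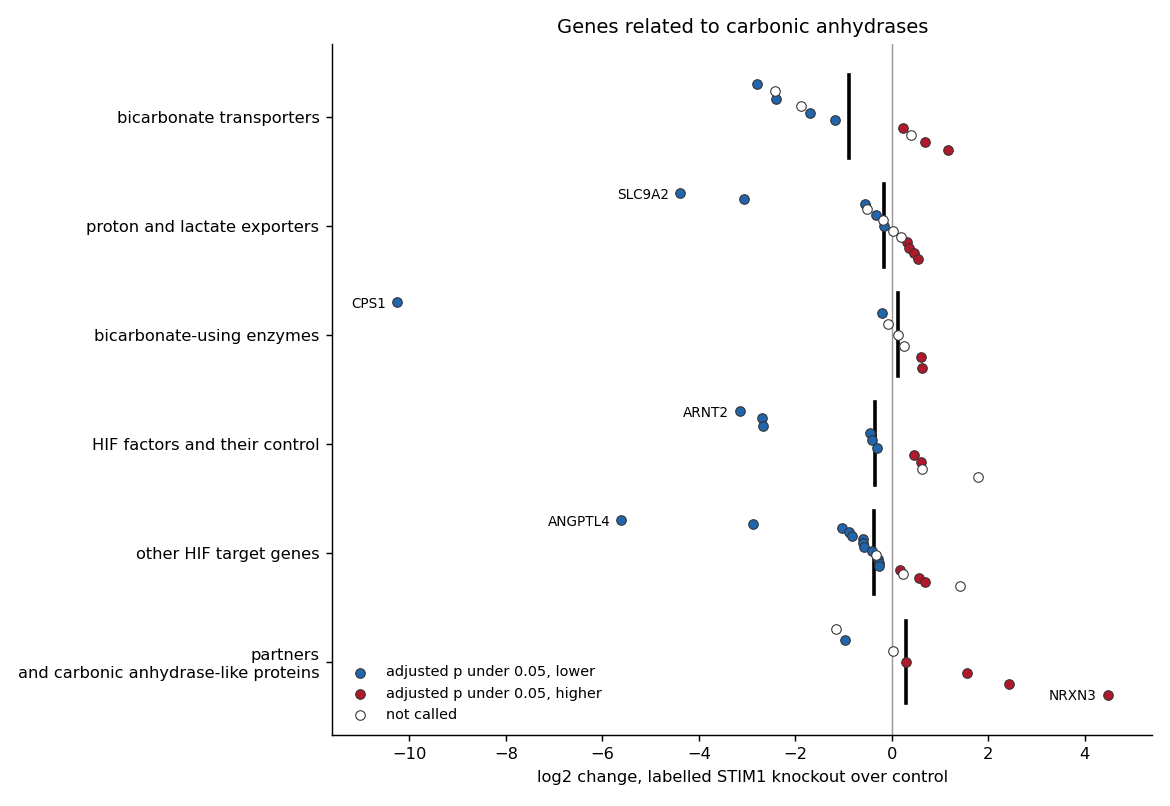
Log2 change, libraries labelled STIM1 knockout over control, of genes in 6 lists related to carbonic anhydrases. Points are genes, filled blue (lower) or red (higher) where the authors' adjusted p was under 0.05 and open otherwise, and black bars are list medians. Genes at 0 in a group are drawn at 3 reads over the group, genes with at most 3 reads in both groups are not drawn, and CPS1 at −10.25 is the lowest point.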

How the data were processed

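RNA was sequenced in 6 libraries, 3 per group. Per the labels' protocols, libraries were made from total RNA with a SMARTER mRNA-Seq kit. The submitters' processing notes name the mouse builds GRCm38 and mm10. The deposited chromosome accessions are human ones of GRCh38, the build given here. Aligner, counting tool and strand setting are not given in the sources used here.

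Per the file headers, the deposited signal of a gene is the authors' mean over a group of counts divided by size factors. The authors also deposited the ratio (fold change) of the means, its log2 value, and a p-value with its adjusted form. The authors' adjusted p under 0.05 is the test used for genes that are not members.

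Means are printed with 15 digits, and whole reads were recovered from them for all 17381 genes. Size factors recomputed from these reads by the median of ratios differed from the recovered ones by at most 2.0e-13%. More than 1 set of reads was possible for 7 knockout-labelled and 6 control means, none of a member, and there the most even set was taken. Reads differed between libraries of a group by 2.01 to 2.58 times what counting gives (chi-square per degree of freedom), so each was counted as 1 sample. Differences on the log2(normalized count + 1) scale came from limma 3.58.1 (trended empirical Bayes, R 4.3.3), tested on simulated data and run where the mean reached 1, which 6 members did. Only groups at 0 were set to 3 reads over the group.

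The members and lists were chosen with earlier results of these data known. Named are the members, the 3 genes of smallest p in each list with a mean of at least 5, the 2 nearest genes on each side of a member and the 3 genes most like CA9 and CA12. Of the neighbours, those with the highest and lowest log2 change and those beside CA9 and CA12 are named.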

Additional observations from a re-analysis of the deposited data

How the results depend on the processing

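No paired analysis was possible because the recovered libraries carry no sample number. The planned count test and TMM scaling were not run, and limma and voom on the recovered reads were used in their place. The authors' table called 9472 genes at 0.05, and 8406 to 10478 were called under the alternatives (a threshold of 0.01, limma with other filters and pseudocounts, scaling by total reads, voom, and libraries left out, the last at 9820 to 9991). Scaling by total reads and voom were chosen after seeing the data. The log2 changes of the 6 members with reads stayed negative throughout. Leaving out 1 library gave −9.10 to −8.40 for CA9, −7.00 to −6.62 for CA12, −7.06 to −6.04 for CA2 (the last without library C labelled knockout, which has 0 of its 2 reads), −3.04 to −2.40 for CA13, −2.21 to −1.67 for CA14 and −1.15 to −0.89 for CA11. With 1 added to both means CA2 moved to −5.30 in place of −6.63, as it rests on 2 reads. Of 89 alternative values, 87 stayed within the spread between libraries or, for counts, within 1.5 times. Depth limits CA2, CA4, CA5B, CA7 and CA13, which had at most 12 reads over the libraries labelled knockout.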
